A study of Mus musculus with 16 samples.

Results

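Chemokines, cytokines and their receptors were followed as 1 family of genes across the tumours and normal brain samples of a mouse glioma study. Members were all genes whose symbol on the array begins with the stem of a chemokine or chemokine receptor, an interleukin or its receptor, a ligand or receptor of the tumour necrosis factor (TNF) superfamily, or a colony stimulating factor or its receptor. A member also had to be detected above background on 3 or more arrays, with a detection p-value under 0.05, and its probe with the highest mean signal stood for it. Of 168 matching genes on the array 82 met this rule, among 11755 genes measured in all. The other 86 were too dim, 69 of them undetected on every array. By role the members were 16 CC and CX3C chemokines, 7 CXC chemokines, 4 chemokine receptors, 14 interleukins, 21 interleukin receptors and binding proteins, 4 TNF ligands, 11 TNF receptors and 4 colony stimulating factors or receptors. Il4i1, which matches by name only, encodes an amino acid oxidase.

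The study's title names the tumours high-grade glioma, and they arose in mice in which Cre recombinase that is active after tamoxifen removed tumour suppressor genes. Each of 8 tumours, numbered 2, 3, 5, 6, 7, 8, 9 and 10 in the labels, came from an animal with neurological symptoms, and no region is given for any of them. Control tissue was dorsal brain (5 samples) or ventral brain (3 samples), flash frozen and extracted in the same way. The deleted genes, the genotype and treatment of the control mice, and the age and sex of all mice are not given in the sources used here. Single Illumina bead arrays were run for each sample, spread over 3 chips, and 38.8% to 45.1% of 45281 probes were detected on an array.

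Chemokines are small secreted proteins that draw leukocytes along a gradient through receptors coupled to G proteins. CC chemokines mainly recruit monocytes, T cells and dendritic cells, and CXC chemokines recruit neutrophils or lymphocytes depending on the member. In brain, neurons display the membrane-bound chemokine Cx3cl1, and microglia, the resident macrophages, carry its receptor Cx3cr1. Interleukins and colony stimulating factors act mostly through JAK kinases and STAT transcription factors, whereas interleukin-1 and TNF family receptors act through adaptor proteins and the transcription factor NF-kB. Activated NF-kB in turn is a classical inducer of many chemokine genes.

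Among the 82 members, 32 were higher and 11 lower in tumours than in the mean of both control regions (limma adjusted p under 0.05, called throughout), and 39 were not called. That is 39.0% higher and 13.4% lower, where 27.3% of all 11755 genes were called higher and 26.7% lower. In either direction 43 members were called, or 52.4%, beside 54% of all genes. Signals are normalised log2 intensities, a difference of 1 is a 2-fold change, and differences carry the standard error of the limma contrast. The median difference over the members was 0.29, or 0.21 with undetected values set to the background level, against 0.01 over all genes. By at least 2-fold 19 members were called higher and 7 lower, with 12.5% and 13.6% of all genes past the same limits. In 11 members (13.4%, with 10.6% of all genes) every tumour lay above every control, and in 4 members (4.88%, with 10.1% of all genes) every tumour lay below every control.

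These counts include members that entered only through the tumours. For 18 members the probe was undetected on every control, and 14 of those (77.8%) were called higher, which the detection rule favours, beside 371 of 539 such genes (68.8%) among all tested. Of the 64 members detected on a control 18 (28.1%) were called higher, close to the 25.3% of all such genes. The excess of higher calls over all genes thus lay mostly in members undetected on every control. The 64 were not free of the rule either, since members detected on fewer than 3 controls also needed tumours to meet it. Among these were Ccl12, Ccl6, Ccl9, Ccrl2, Il10rb, Il17rb and Il3ra, all called higher. Ccl20 alone was undetected on every tumour, and 23 members were detected on all 16 arrays. Just inside the rule, with detection on exactly 3 arrays, were Il1r2, Ccl20 and Il1f10. Just outside it, detected on 2 arrays, were Ccl8, Csf2rb, Csf3, Il17a, Il22ra1, Il7, Tnfrsf10b and Tnfsf11. The lowest signal of a detected probe was 4.76 to 5.02 over the arrays, so values below about that level carry no order. A fold against a group undetected on all of its arrays is therefore a bound, given as "at least". An undetected probe does not show that the transcript is absent, since the probes of the abundant neuronal genes Snap25 and Nefl were undetected on all arrays too.

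**Figure D1:**
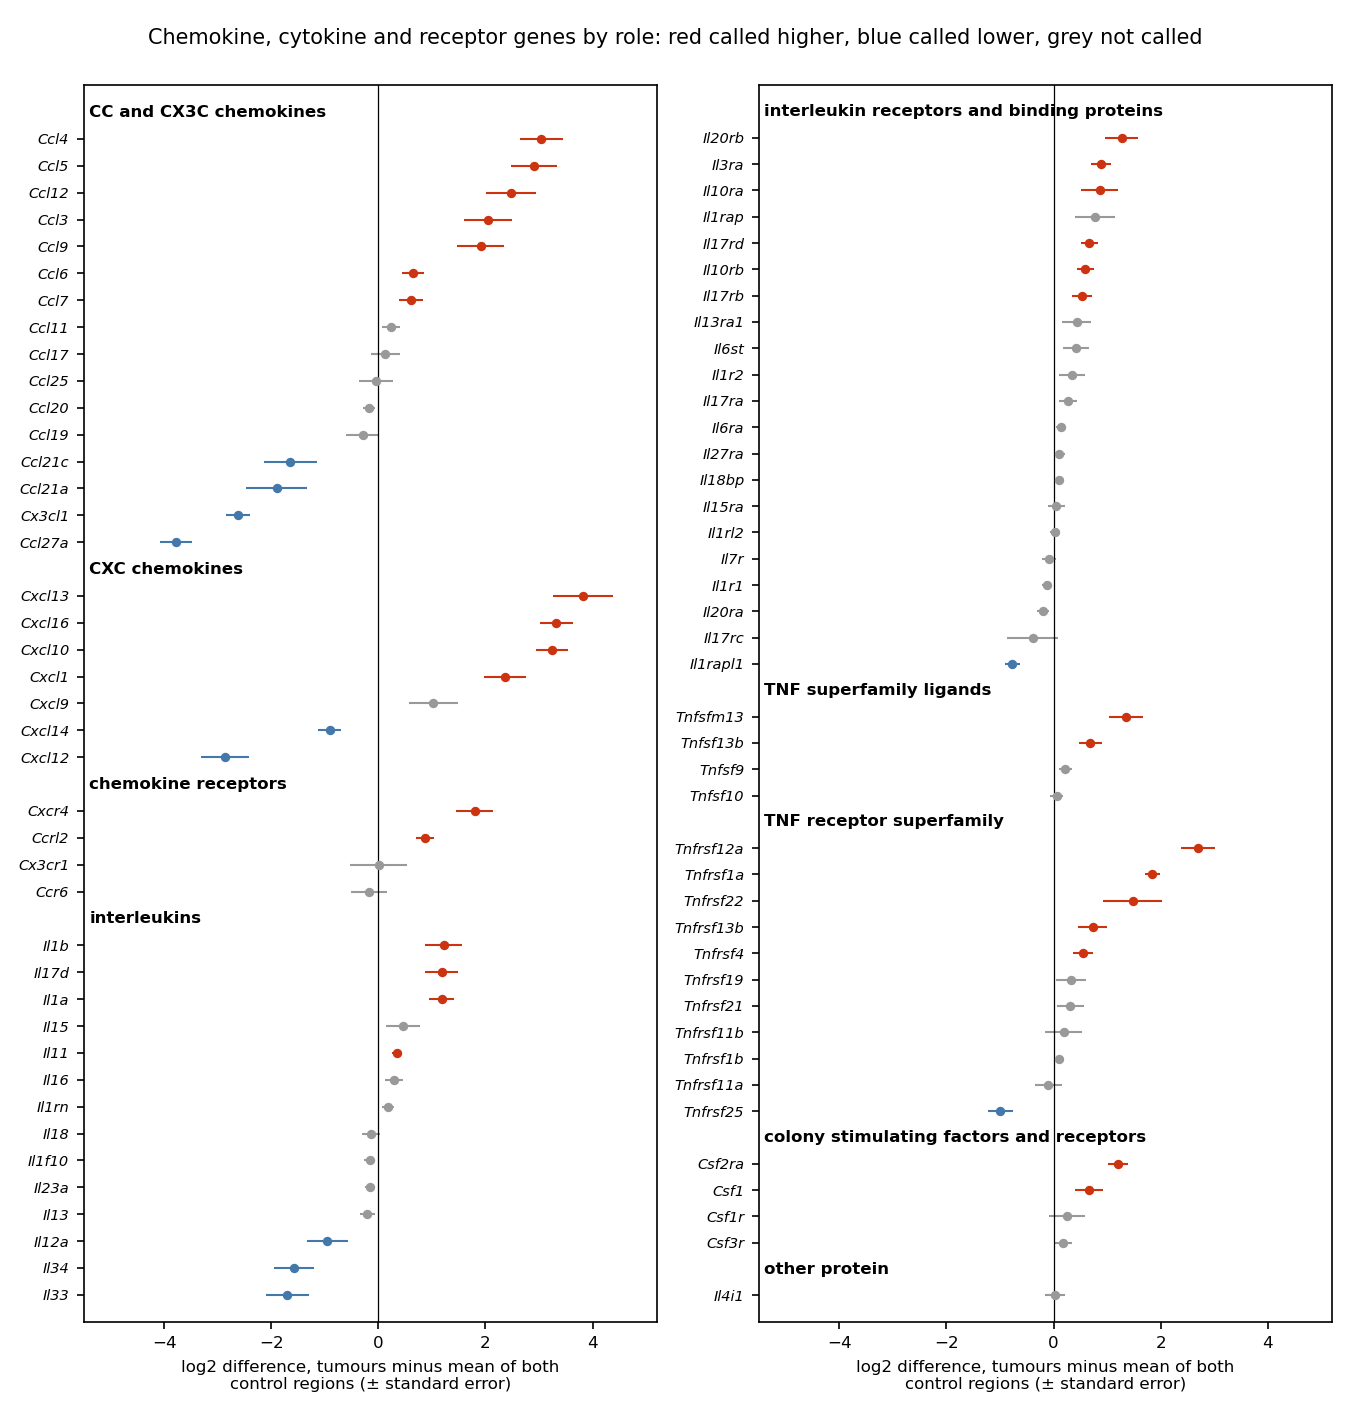
Log2 difference between 8 tumours and the mean of 5 dorsal and 3 ventral controls for each of the 82 genes, grouped by role, with the standard error of the limma contrast. Red points are called higher (32), blue points called lower (11) and grey points not called (39). The chemokines span the widest range, from -3.78 for Ccl27a to 3.83 for Cxcl13.

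Chemokine ligands held the largest rises and the largest falls. Of 23 ligands 11 (47.8%) were called higher and 6 (26.1%) lower, beside 27.3% and 26.7% of all genes, which left 6 not called. In all, 9 of the 23 ligands were undetected on every control. They held 8 of the 11 higher calls, which the detection rule favours. The other risen ligands, Ccl12, Ccl9 and Ccl6, were detected on fewer than 3 controls and so also met the rule through tumours. The CXC ligands Cxcl13, Cxcl16, Cxcl10 and Cxcl1 went from undetected on all 8 controls to detected on all 8 tumours. Cxcl13, which draws B cells and follicular T cells through Cxcr5, read 4.42, 4.66, 4.39, 4.45 and 4.63 in the dorsal controls and 4.60, 4.47 and 4.46 in the ventral controls, and 5.82 to 10.63 (median 8.12) in the tumours. Every tumour was above every control, with tumours 2 and 6 the highest. The difference was 3.83 ± 0.56 (at least 10.9-fold, adjusted p = 2.66e-05), the largest rise of the family.

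Cxcl16 encodes a membrane-bound chemokine and scavenger receptor of macrophages that binds Cxcr6. Dorsal controls read 4.84, 4.55, 4.44, 4.52 and 4.49, ventral controls 4.36, 4.80 and 4.39 and tumours 6.60 to 9.51 (median 7.82). All tumours stood clear of all controls (3.32 ± 0.31, at least 7.8-fold, adjusted p = 2.64e-07). A second probe of Cxcl16, detected on 5 tumours, gave 0.66 ± 0.14.

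Cxcl10, induced by interferons and a ligand of Cxcr3, read 4.37, 4.50, 4.44, 4.36 and 4.44 in dorsal controls, 4.53, 4.28 and 4.46 in ventral controls and 6.40 to 8.95 (median 7.64) in tumours. The groups did not overlap (3.25 ± 0.30, at least 6.86-fold, adjusted p = 2.27e-07). Cxcl1, a neutrophil attractant that binds Cxcr2, read 4.40, 4.32, 4.32, 4.30 and 4.46 and 4.35, 4.46 and 4.52 in the control groups. Its tumour values ran 4.97 to 8.36 (median 6.96), all above the controls (2.36 ± 0.39, at least 3.64-fold, adjusted p = 9.7e-05). Cxcl9, the other interferon-induced ligand of Cxcr3 measured here, was undetected on all controls and was not called (1.03 ± 0.46, adjusted p = 0.0669), with tumour 5 at 8.45 and the others between 4.40 and 5.97.

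The 250 bases before the annotated start of Cxcl10 and Cxcl1 are shown because both genes rose and both windows held an NF-kB match. The tumours did not rank alike for the genes, since tumour 10 was the lowest for Cxcl10 (6.40) and read 7.31 for Cxcl1. The sequences are from RefSeq (GRCm38.p6), 5′ to 3′ on the strand of the gene. Capitals mark matches, on either strand, to the interferon response (ISRE) core, the NF-kB consensus or the AP-1 motif TGANTCA.
Cxcl10, chr5:92348890-92349139, minus strand: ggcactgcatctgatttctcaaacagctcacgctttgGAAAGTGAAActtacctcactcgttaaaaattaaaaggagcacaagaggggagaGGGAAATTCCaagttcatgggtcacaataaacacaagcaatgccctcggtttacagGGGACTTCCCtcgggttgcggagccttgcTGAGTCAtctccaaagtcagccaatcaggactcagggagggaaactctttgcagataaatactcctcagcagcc
Cxcl1, chr5:90890995-90891244, plus strand: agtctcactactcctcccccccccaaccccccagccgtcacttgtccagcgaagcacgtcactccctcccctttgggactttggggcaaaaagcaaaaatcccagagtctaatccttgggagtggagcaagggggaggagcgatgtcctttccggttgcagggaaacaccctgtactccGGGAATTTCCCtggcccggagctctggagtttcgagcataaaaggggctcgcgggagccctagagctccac
The Cxcl10 window held the ISRE core GAAAGTGAAA, NF-kB matches GGGAAATTCC and GGGACTTCCC, and the AP-1 match TGAGTCA. The capitals in Cxcl1 are a pair of overlapping NF-kB matches, 1 on each strand.

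Among CC and CX3C chemokines, 7 of 16 (43.8%, beside 27.3% of all genes) were called higher, all of them CC chemokines. Of these, 4 were undetected on every control, and Ccl12, Ccl9 and Ccl6 were detected on fewer than 3 controls. Of the 7, Ccl5, Ccl9, Ccl6, Ccl3 and Ccl4 are consecutive protein-coding genes on chromosome 11 in the RefSeq annotation. Ccl4, a chemokine made by activated macrophages and T cells, read 4.79, 4.62, 4.76, 4.79 and 4.37 in dorsal and 4.64, 4.54 and 4.81 in ventral controls, none of them detected. In tumours it read 5.80 to 9.73 (median 7.54), above every control (3.04 ± 0.40, at least 6.98-fold, adjusted p = 1e-05). A second probe, detected on 7 tumours and on no control, gave 0.80 ± 0.26.

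Ccl5, which draws T cells and monocytes, read 4.37, 4.44, 4.64, 4.64 and 4.54 in dorsal controls, 4.42, 4.44 and 4.59 in ventral controls and 5.61 to 9.00 (median 7.16) in tumours, again with no overlap (2.90 ± 0.43, at least 5.68-fold, adjusted p = 3.39e-05). Ccl3, a ligand of Ccr1, rose by 2.05 ± 0.45 (at least 3.11-fold, adjusted p = 0.00118), with 7 of 8 tumours above every control and tumour 10 at 4.48 among the controls. Ccl9, a mouse chemokine of myeloid cells, rose by 1.91 ± 0.44 (adjusted p = 0.00174), and here tumour 9 (4.72) lay within the control range. It was detected on 2 controls only, so no fold is given. Ccl6, its neighbour, rose by 0.65 ± 0.21 (adjusted p = 0.0156), where tumour 9 (4.94) again did not exceed the highest control.

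A further run of neighbours, Ccl7, Ccl11 and Ccl12, also lies on chromosome 11. Ccl12, a mouse ligand of the monocyte receptor Ccr2, read 4.59, 4.28, 4.73, 4.99 and 4.95 in dorsal controls, 4.54, 4.45 and 4.65 in ventral controls and 4.87 to 8.98 (median 7.53) in tumours. Its difference was 2.48 ± 0.47 (adjusted p = 0.000344; no fold is given because the ventral controls were undetected), with 7 of 8 tumours above every control, and a second probe gave 2.34 ± 0.46. Ccl7, another Ccr2 ligand, was called near background (0.61 ± 0.22, at least 1.09-fold, adjusted p = 0.0287) and was detected on 4 tumours. Ccl11, the eosinophil attractant eotaxin, gave 0.23 ± 0.17 and was not called. Ccl2, the main monocyte attractant in many tissues, was detected on 1 tumour and was not among the members.

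Of the chromosome 11 run, windows were found for Ccl9, Ccl6 and Ccl3 and not for Ccl4 and Ccl5. The window before Ccl9 is shown because it held an NF-kB match, with the AP-1 match TGAATCA beside it.
Ccl9, chr11:83578637-83578886, minus strand: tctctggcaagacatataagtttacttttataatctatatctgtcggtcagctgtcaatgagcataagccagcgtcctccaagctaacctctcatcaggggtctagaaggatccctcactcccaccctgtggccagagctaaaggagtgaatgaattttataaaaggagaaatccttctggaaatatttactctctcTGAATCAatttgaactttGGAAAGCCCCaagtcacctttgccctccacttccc
Promoter windows of 65 of the 82 members were found in the RefSeq table (GRCm38.p6). An NF-kB match occurred in 5 of 25 risen members (Ccl9, Ccrl2, Csf1, Cxcl1 and Cxcl10), in 0 of 9 fallen members and in 1 of 31 members not called, and in 3.75% of 27025 windows of all genes. The ISRE core was found in 1 of 25 risen, 1 of 9 fallen and 2 of 31 other members and in 3.04% of all windows. AP-1 matches lay in 4 of 25 risen, 0 of 9 fallen and 3 of 31 other members (6.87% of all windows). The STAT motif TTCNNNGAA was matched in 1 of 25 risen, 1 of 9 fallen and 5 of 31 other members (7.18%). A match is a letter pattern and not a measured binding site.

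**Figure D2:**
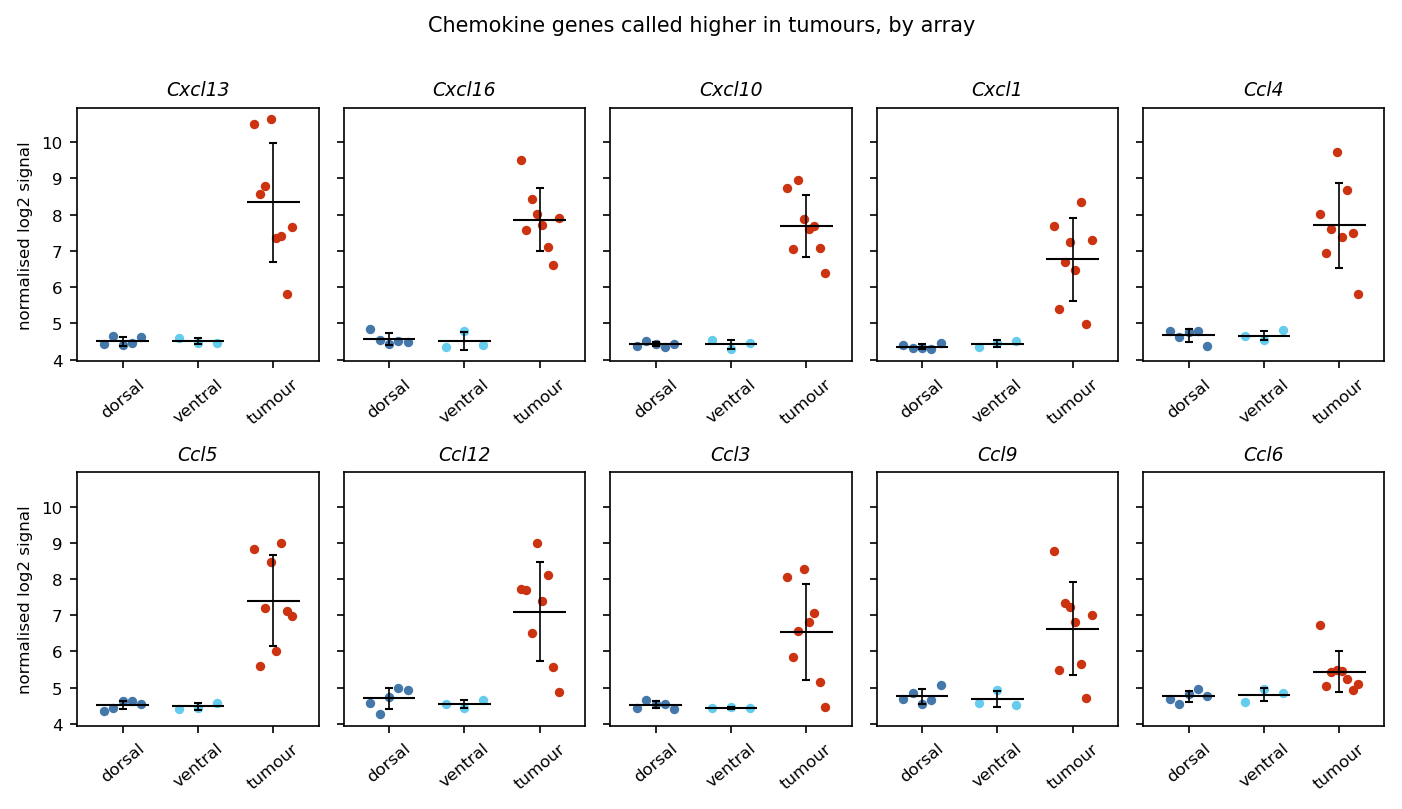
Normalised log2 signal on each array for 10 of the 11 chemokine genes called higher, with points for 5 dorsal controls, 3 ventral controls and 8 tumours, and bars for the mean ± SD. Controls sit between 4.28 and 5.07, at about background, and tumours reach 10.63 for Cxcl13.

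Markers of myeloid cells and of oligodendrocyte progenitors were also higher in tumours. Of 8 measured macrophage markers 5 were called higher, Gpnmb by 5.00 ± 0.48, Lyz2 by 4.83 ± 0.46, Lgals3 by 4.61 ± 0.35, Cd14 by 2.44 ± 0.34 and Ms4a7 by 1.83 ± 0.47. The mean log2 signal of that list was 5.17 to 5.67 in controls and 6.85 to 9.97 in tumours, above every control in 8 of 8 tumours. Mrc1 (0.70 ± 0.37), Arg1 (0.74 ± 0.53) and F13a1 (0.07 ± 0.48) were not called, and Cd163, a macrophage scavenger receptor, was detected on no array. Among 9 measured microglia markers 5 were called higher, C1qa, C1qb, Trem2, Aif1 and Sall1. Tmem119 (0.28 ± 0.33), P2ry13 (-0.12 ± 0.53), Siglech (-0.21 ± 0.39) and Gpr34 (-0.27 ± 0.35) were not called, and P2ry12 was detected on no array. The microglia list mean was 6.69 to 7.51 in controls and 6.20 to 9.02 in tumours, which overlapped. All 5 oligodendrocyte progenitor markers were called higher, Olig2 by 3.28 ± 0.38, Pdgfra by 2.90 ± 0.51, Cspg4 by 2.58 ± 0.51, Sox10 by 2.42 ± 0.57 and Olig1 by 1.88 ± 0.21. Their list mean was 7.55 to 8.43 in controls and 8.61 to 11.93 in tumours, above every control in 8 of 8. In bulk tissue, more cells of a type and more RNA per cell cannot be told apart, and the part of these markers in the chemokine differences was not tested.

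Lymphocyte markers were at or near background. Of 7 T and NK cell markers on the array only Cd3e was measured (-0.05 ± 0.18, not called), and Cd3d, Cd3g and Nkg7 were detected on 2 tumours each, Cd2 on 1 tumour, Cd4 on 2 controls and Cd8a on no array. The B cell markers Cd79b and Ms4a1 were detected on 2 tumours and on 1 control. Of 4 measured neutrophil markers Lcn2, which glia and tumour cells can also make, was called higher (at least 11.7-fold), and Ngp and Mmp8 were detected on no array.

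**Figure D3:**
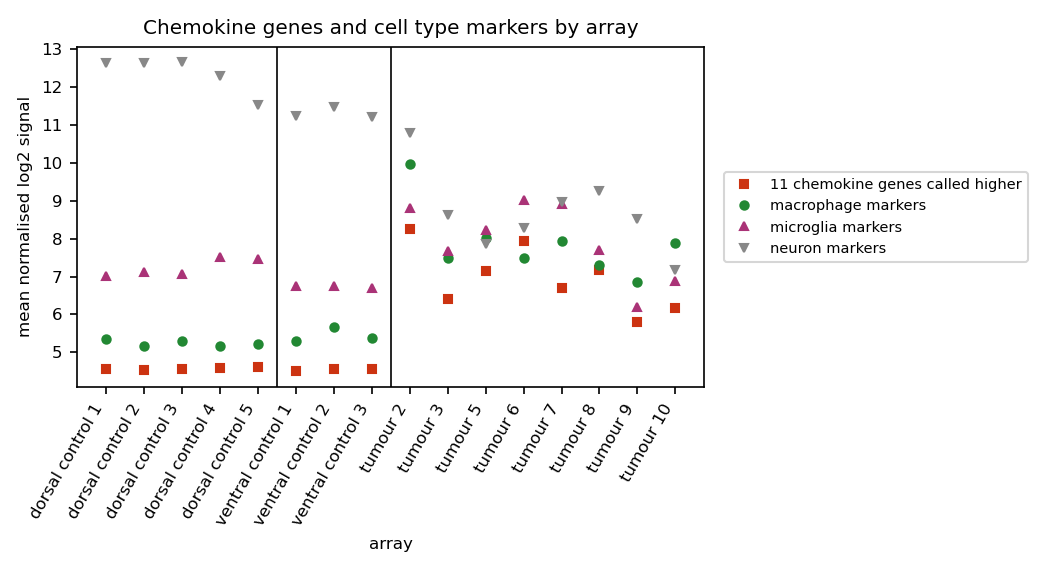
Mean normalised log2 signal on each of the 16 arrays for the 11 chemokine genes called higher and for 3 lists of cell type markers. The chemokine mean runs from 5.81 in tumour 9 to 8.25 in tumour 2, and the macrophage mean from 6.85 to 9.97 in the same tumours. Between these the order differs, with tumour 6 at 7.95 for chemokines and 7.50 for macrophages, and tumour 10 at 6.18 and 7.88.

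The chemokine ligands called lower were Ccl27a, Cxcl12, Cx3cl1, Cxcl14, Ccl21a and Ccl21c, and the first 4 were detected on all 8 controls. Ccl27a, known from skin where it attracts T cells through Ccr10, read 12.10, 10.81, 11.46, 11.90 and 11.23 in dorsal controls, 11.01, 11.10 and 11.03 in ventral controls and 6.37 to 8.66 (median 7.33) in tumours. No tumour reached the lowest control. It fell 13.8-fold (-3.78 ± 0.30, adjusted p = 5.41e-08), the largest fall of the family, and a second probe gave -3.55 ± 0.20. The mouse genome holds close copies of Ccl27a and of Ccl21a, which these probes may not separate.

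Cx3cl1, the chemokine that neurons present to microglia, read 11.93, 11.74, 11.67, 11.67 and 12.13 in dorsal controls, 10.47, 10.36 and 10.21 in ventral controls and 7.85 to 9.54 (median 8.26) in tumours. The 3 groups were fully separate, with dorsal controls highest and tumours lowest, and the tumour difference was -2.62 ± 0.22 (6.14-fold lower, adjusted p = 8.72e-08). Its promoter window is given as that of a fallen gene and held none of the 4 motifs searched. The windows of the risen Cxcl13, Ccl12, Ccl3 and Ccl6 held none either. That of the fallen Cxcl14 held an ISRE core and a TTCNNNGAA match.
Cx3cl1, chr8:94771930-94772179, plus strand: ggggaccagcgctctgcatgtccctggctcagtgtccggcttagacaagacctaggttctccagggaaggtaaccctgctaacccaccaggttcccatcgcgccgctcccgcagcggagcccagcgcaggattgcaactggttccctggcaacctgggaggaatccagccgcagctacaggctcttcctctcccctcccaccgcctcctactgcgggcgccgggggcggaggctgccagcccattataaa

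Cxcl12, a constitutive chemokine of meninges, vessels and neurons, read 9.20, 9.41, 9.52, 9.06 and 9.94 in dorsal controls and 8.75, 8.97 and 9.05 in ventral controls. Tumours read 4.66 to 7.99 (median 5.77), all below the controls, with tumours 2, 7 and 10 between 7.49 and 7.99 and the others at most 5.85. The fall was 7.25-fold by this probe (-2.86 ± 0.45, adjusted p = 5.44e-05), and other probes of Cxcl12 gave -1.03 ± 0.16 and -0.43 ± 0.23, so its size depends on the probe. Cxcl14, a chemokine of epithelia and interneurons, fell by a smaller amount (-0.91 ± 0.22, adjusted p = 0.00214), with 5 of 8 tumours below every control. Against ventral controls alone Cxcl14 was not called (-0.55 ± 0.29, adjusted p = 0.138).

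Ccl21a and Ccl21c, near-identical genes whose product binds Ccr7, were called lower (-1.90 ± 0.57 and -1.64 ± 0.50, adjusted p = 0.0107 and 0.012) from very uneven dorsal controls. Ccl21a read 9.39, 4.42, 9.29, 8.35 and 7.68 in dorsal controls, 5.83, 6.55 and 6.32 in ventral controls and 4.40 to 6.29 (median 4.94) in tumours. Dorsal control 2 was at background while the other dorsal controls were the brightest samples, and against ventral controls alone the difference was not called (-1.10 ± 0.77, adjusted p = 0.271). Ccl19, the other Ccr7 ligand, gave -0.29 ± 0.31 and was not called, and dorsal control 1 was the highest array for it at 7.17. Also not called were Ccl17 (0.13 ± 0.27), Ccl20 (-0.18 ± 0.11) and Ccl25 (-0.04 ± 0.32), for which a second probe gave 0.88 ± 0.18.

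The falls of ligands stood beside losses of neuronal markers. All 8 measured neuron markers were called lower, and the list mean was 11.22 to 12.65 in controls and 7.18 to 10.78 in tumours. Of 8 astrocyte markers 5 were called lower and 1 higher, and 4 of 5 measured oligodendrocyte markers were called lower. The part of these changes in the falls of Cx3cl1, Cxcl12, Il34 and Il33 was not tested.

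**Figure D4:**
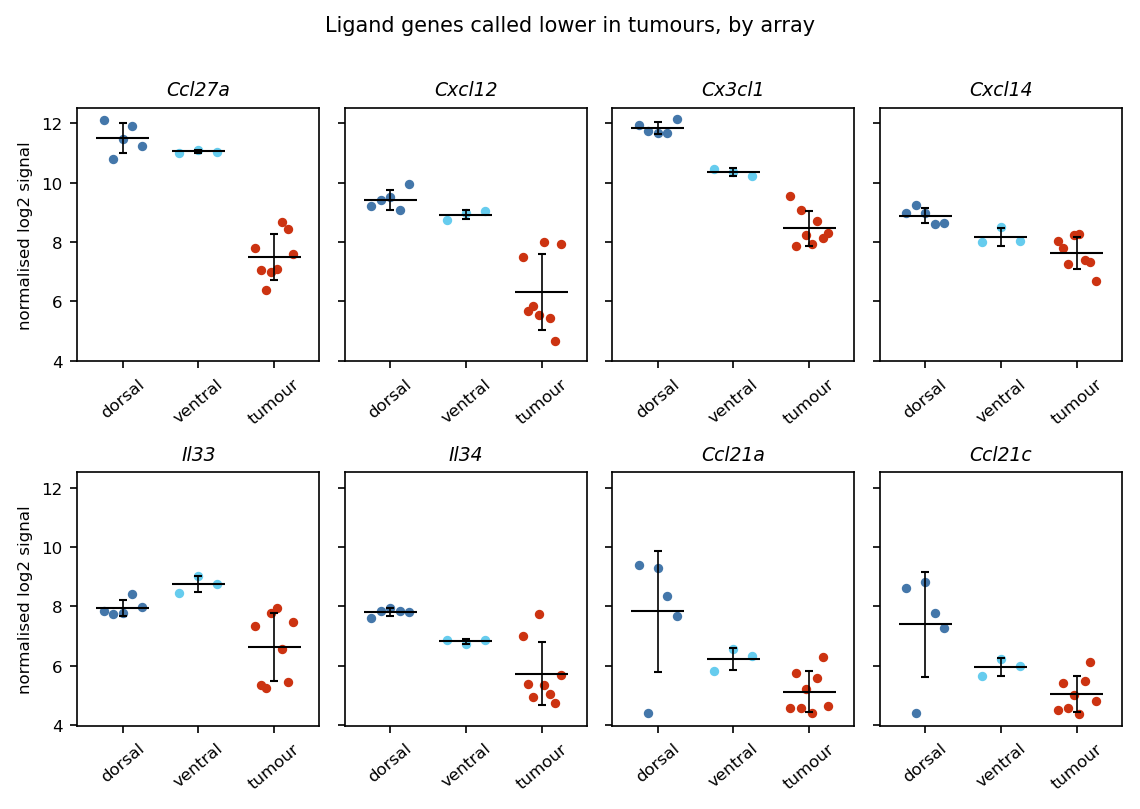
Normalised log2 signal on each array for 8 of the ligand genes called lower in tumours, with the mean ± SD of each group. The groups of Ccl27a, Cxcl12 and Cx3cl1 do not overlap between tumours and controls, whereas tumours 2 and 6 overlap the control range for Il34, and dorsal control 2 lies at background for Ccl21a and Ccl21c.

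Of 17 chemokine receptors on the array 4 were measured. Cxcr4, the receptor of Cxcl12 on leukocytes, progenitors and many tumour cells, read 4.39, 4.51, 4.70, 4.90 and 4.37 in dorsal controls, 4.86, 5.18 and 4.53 in ventral controls and 5.28 to 8.29 (median 6.47) in tumours. Every tumour exceeded every control, and the rise was 1.80 ± 0.35 (adjusted p = 0.000384). The probe was detected on 3 controls only, so no fold is given. Ccrl2, an atypical receptor that binds chemerin, rose by 0.87 ± 0.17 (adjusted p = 0.000431), with 7 of 8 tumours above every control.

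Cx3cr1 read 8.12, 8.21, 8.20, 8.63 and 9.03 in dorsal controls, 8.20, 8.02 and 8.34 in ventral controls and 5.74 to 10.04 (median 8.54) in tumours. Tumours lay on both sides of the controls, 3 above all of them and 2 below all of them, and the mean difference was 0.01 ± 0.53 (adjusted p = 0.984). The 5.74 of tumour 9 and the 6.47 of tumour 10 were the lowest, and the microglia list mean was lowest in tumour 9 (6.20) as well, with tumour 10 next at 6.88. Both were on chip 1, within which Cx3cr1 differed by -1.38, against 0.93 within chip 3. Ccr6, a receptor of Ccl20 on lymphocytes and dendritic cells, gave -0.17 ± 0.34, with dorsal control 5 at 7.01 as the highest array. The other 13 receptors were detected on fewer than 3 arrays, among them Ccr1, Ccr2, Ccr7, Cxcr2, Cxcr3, Cxcr5 and Cxcr6, which were detected on none.

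Of 14 interleukins 4 (28.6%) were called higher and 3 (21.4%) lower, close to the shares of all genes. Of the 4 higher, 3 (Il1a, Il1b and Il11) were undetected on every control, which the detection rule favours. Il1b, the inflammasome-processed cytokine of myeloid cells, read 4.64, 4.62, 4.75, 4.47 and 4.30 in dorsal controls, 4.34, 4.43 and 4.42 in ventral controls and 4.47 to 7.37 (median 5.61) in tumours. The 6 tumours in which the probe was detected exceeded every control, led by tumour 6, while tumours 3 and 7 lay at background. The rise of Il1b was 1.22 ± 0.34 (at least 1.75-fold, adjusted p = 0.0069). Its neighbour Il1a on chromosome 2 rose by 1.18 ± 0.23 (at least 1.88-fold, adjusted p = 0.000485), with 6 of 8 tumours above every control, and a second probe gave 0.41 ± 0.13.

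Il17d, an interleukin-17 family member expressed in brain, read 7.84, 7.83, 7.78, 7.63 and 8.13 in dorsal controls and 7.82, 7.71 and 7.80 in ventral controls. Tumours read 7.79 to 10.34 (median 9.03), highest in tumour 10, and 6 of 8 exceeded every control (1.18 ± 0.31, adjusted p = 0.00386). The size varied, 2.02 within chip 1 and 0.68 within chip 3, and a second probe gave 0.70 ± 0.30. The order of tumours differed from that of the chemokines, since tumours 9 and 10 were the highest for Il17d. Il11, a cytokine of the interleukin-6 family, passed the test (0.35 ± 0.10, adjusted p = 0.00892) but lay at background on all controls and on 4 tumours, so no fold is given.

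Il33, an alarmin stored in nuclei of astrocytes and oligodendrocytes, read 7.85, 7.73, 7.77, 8.42 and 7.97 in dorsal controls, 8.46, 9.02 and 8.76 in ventral controls and 5.26 to 7.95 (median 6.95) in tumours. Tumours were lower by 3.26-fold (-1.70 ± 0.40, adjusted p = 0.00199), 6 of 8 below every control. Il34, made by neurons and the other ligand of the Csf1 receptor, read 7.61, 7.83, 7.95, 7.84 and 7.80, 6.87, 6.73 and 6.86 and 4.75 to 7.73 (median 5.36) in the same order of groups. Tumour 6 at 7.73 and tumour 2 at 7.00 stayed within the control range while the other 6 lay below every control (-1.58 ± 0.37, 2.99-fold lower, adjusted p = 0.0018). Against ventral controls alone Il34 was not called (-1.08 ± 0.49, adjusted p = 0.0886).

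Il12a, a subunit shared by interleukins 12 and 35, was called lower at the edge of the threshold (-0.95 ± 0.39, adjusted p = 0.0489). The tested difference came from the dorsal controls, which read 7.91, 6.69, 7.84, 5.98 and 4.42, while ventral controls (4.41, 4.66 and 4.48) were undetected and tumours read 4.37 to 5.23 (median 4.48). The call was kept in 3 of the 16 fits that each left out 1 array. The remaining interleukins differed by -0.21 to 0.46 and were not called, Il18 (-0.14 ± 0.17), Il15 (0.46 ± 0.31), Il16 (0.30 ± 0.17), Il13 (-0.21 ± 0.14), Il23a (-0.16 ± 0.09), Il1f10 (-0.16 ± 0.10) and Il1rn, the interleukin-1 receptor antagonist (0.18 ± 0.11). Il6, Il4 and Il10 were detected on no array.

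Among receptors and binding proteins of interleukins 6 of 21 (28.6%) were called higher and 1 (4.76%) lower, with a median difference of 0.27. Of all genes 27.3% were called higher and 26.7% lower. Of the 6 higher, 2 were undetected on every control, and Il3ra, Il10rb and Il17rb were detected on fewer than 3 controls. Il20rb, a subunit of the receptors for interleukins 19, 20 and 24, read 4.36, 4.52, 4.40, 4.46 and 4.41 in dorsal controls, 4.32, 4.40 and 4.40 in ventral controls and 4.78 to 6.87 (median 5.28) in tumours. The 6 tumours in which it was detected were above all controls, tumours 8, 9 and 2 the most, and tumours 6 and 7 were undetected like the controls (1.27 ± 0.30, at least 1.71-fold, adjusted p = 0.00193), but a second probe gave 0.17 ± 0.10. Also called were Il3ra (0.89 ± 0.19, adjusted p = 0.0011), Il10ra, which carries the anti-inflammatory signal of Il10 (0.86 ± 0.34, adjusted p = 0.041), Il17rd, a feedback inhibitor of FGF signalling (0.67 ± 0.16, at least 1.28-fold, adjusted p = 0.00167), Il10rb (0.59 ± 0.16, adjusted p = 0.00497) and Il17rb (0.53 ± 0.18, adjusted p = 0.0207). The Il10ra call was kept in 5 of the 16 fits that left out 1 array. Il1rapl1, a synaptic adhesion protein of the interleukin-1 receptor family, was lower in every tumour than in every control (-0.77 ± 0.14, adjusted p = 0.000246), while its other probe gave -0.03 ± 0.09.

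For some receptors the difference depended on the probe. The probe used for Il6ra, which binds interleukin-6, gave 0.14 ± 0.10 and was not called, and its other probes gave 1.15 ± 0.23 and 0.70 ± 0.14. Il1rap, the shared signalling subunit of interleukin-1 receptors, gave 0.78 ± 0.37 (adjusted p = 0.0848) and its other 4 probes gave 0.72 to 2.25. Il6st, the common subunit of interleukin-6 family receptors, gave 0.42 ± 0.24 with 5 of 8 tumours above every control, and was not called. Il1r1 (-0.12 ± 0.09), Il13ra1 (0.43 ± 0.27), Il15ra (0.05 ± 0.16) and Il18bp (0.11 ± 0.09), which neutralises interleukin-18, were not called either.

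In the TNF receptor superfamily 5 of 11 members (45.5%) were called higher and 1 (9.09%) lower, beside 27.3% and 26.7% of all genes. Of the 5 higher, 1 was undetected on every control. Tnfrsf12a, the receptor of the ligand TWEAK and a growth factor-inducible gene, read 6.63, 6.37, 6.62, 5.96 and 5.04 in dorsal controls, 6.17, 6.64 and 6.06 in ventral controls and 7.66 to 10.19 (median 8.89) in tumours. It was detected on all arrays, every tumour exceeded every control, and the rise was 6.51-fold (2.70 ± 0.32, adjusted p = 3.49e-06). Tnfrsf1a, the main receptor of TNF, read 4.66, 4.59, 4.55, 4.53 and 4.46 in dorsal controls, 4.91, 5.01 and 4.96 in ventral controls and 5.93 to 7.03 (median 6.70) in tumours. The groups were separate, the SD over the tumours was 0.36, and the difference was 1.84 ± 0.14 (adjusted p = 4.4e-08), with 1.87 ± 0.14 and 1.81 ± 0.12 from its other probes. No fold is given because the dorsal controls were undetected, and against the detected ventral controls the difference was 1.64 ± 0.19 (adjusted p = 6.43e-06).

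Weaker calls were those of Tnfrsf22, a mouse decoy receptor for TRAIL (1.48 ± 0.55, adjusted p = 0.0319), Tnfrsf13b, a B cell receptor of the survival factor BAFF (0.73 ± 0.27, at least 1.31-fold, adjusted p = 0.0316), and Tnfrsf4, the T cell costimulator OX40 (0.55 ± 0.19, adjusted p = 0.024). Tnfrsf22 ran 4.82 to 9.66 (median 6.47) in tumours, led by tumour 6, its call was kept in 10 of the 16 fits without 1 array, and a second probe gave 0.46 ± 0.25. Tnfrsf25, known as death receptor 3, read 7.09, 7.13, 7.10, 7.11 and 5.85 in dorsal controls, 4.49, 4.60 and 4.37 in ventral controls and 4.25 to 5.82 (median 4.53) in tumours. Ventral controls were undetected and at the level of the tumours, so the called fall (-0.99 ± 0.23, adjusted p = 0.0019) was against the dorsal side (-2.18 ± 0.26), with 0.20 ± 0.31 against the ventral side.

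Of the TNF receptors not called, Tnfrsf21 (0.31 ± 0.25), or death receptor 6, and Tnfrsf19 (0.32 ± 0.28) were detected on all arrays. Tnfrsf1b, the other TNF receptor and a gene of immune cells, stayed near background (0.10 ± 0.10). Tnfrsf11a (-0.10 ± 0.25), detected on 7 controls and 6 tumours, and the decoy receptor Tnfrsf11b (0.19 ± 0.34), detected on 8 controls and 6 tumours, were not called. TNF itself was detected on 1 tumour.

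Of 11 TNF family ligands on the array 4 were measured. Tnfsfm13, a read-through of the neighbouring genes Tnfsf12 and Tnfsf13, rose by 1.36 ± 0.32 (adjusted p = 0.00188), with 6 of 8 tumours above every control, and the files do not say which of these transcripts its probe binds. Tnfsf13b, the B cell survival factor BAFF, read 5.25, 5.67, 5.53, 5.38 and 5.72 in dorsal controls, 7.02, 6.87 and 7.07 in ventral controls and 6.26 to 7.68 (median 6.98) in tumours. Tumours spanned the ventral level (-0.05 ± 0.28, adjusted p = 0.907) and stood above the dorsal one (1.43 ± 0.23, adjusted p = 9.77e-05), and against the mean of both the difference was 0.69 ± 0.21 (adjusted p = 0.0109). Tnfsf9 (0.22 ± 0.12) and Tnfsf10, or TRAIL (0.06 ± 0.12), were not called.

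Colony stimulating factors govern growth and survival of macrophages and granulocytes. Csf2ra, the ligand-binding chain of the GM-CSF receptor, read 6.06, 6.44, 6.30, 6.55 and 6.53 in dorsal controls, 6.01, 5.96 and 6.37 in ventral controls and 6.73 to 8.20 (median 7.40) in tumours. All tumours lay above all controls (1.21 ± 0.19, 2.31-fold, adjusted p = 4.99e-05). Csf1, which maintains microglia and macrophages, was called higher (0.67 ± 0.26, adjusted p = 0.0371), with 4 of 8 tumours above every control. Against ventral controls alone Csf1 was not called (0.38 ± 0.34, adjusted p = 0.399). On chip 1, which carried tumours 8, 9 and 10, Csf1 differed by -0.25, and the call was kept in 8 of the 16 fits without 1 array.

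Csf1r, the receptor of Csf1 and Il34 on microglia and macrophages, read 6.87, 6.94, 6.36, 7.23 and 7.45 in dorsal controls, 6.74, 7.16 and 6.87 in ventral controls and 5.70 to 8.47 (median 7.25) in tumours. Tumour values straddled the controls and the difference was not called (0.25 ± 0.34, adjusted p = 0.555), with 0.88 ± 0.34 from a second probe. Csf3r, the granulocyte receptor, gave 0.18 ± 0.16 and was not called. Csf2 was detected on no array, and Csf3 on 2.

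The differences of ligands and their known receptors are given side by side here. Cxcl12 fell (-2.86) while Cxcr4 rose (1.80). Cx3cl1 fell (-2.62) and Cx3cr1 was not called (0.01). Il34 fell (-1.58) and Csf1 rose (0.67), with Csf1r not called (0.25). For Cxcl10 (3.25), Cxcl16 (3.32), Cxcl13 (3.83) and Cxcl1 (2.36), the receptors Cxcr3, Cxcr6, Cxcr5 and Cxcr2 were detected on no array. The converse held for Tnfrsf12a (2.70) and Il10ra (0.86), whose ligand genes Tnfsf12 and Il10 were detected on no array by their own probes, although the Tnfsfm13 probe, which may read Tnfsf12 transcripts, rose (1.36). Il1b (1.22) rose while Il1r1 (-0.12) was not called. Il17d (1.18) and Il17rd (0.67) both rose, but they were paired by family name and not as a known ligand and receptor. Il1rl1 and Il11ra1 were not analysed here.

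Genes that carry the signals of these receptors were read from lists of pathway members. Of 16 measured JAK and STAT pathway genes 8 (50%, beside 27.3% of all genes) were called higher and the others were not called, with a median of 0.54. The largest rises were those of Socs3, a feedback inhibitor induced by STAT3 (4.04 ± 0.33, adjusted p = 7.21e-08), Irf1 (2.51 ± 0.14, adjusted p = 1.71e-09) and Irf9 (2.15 ± 0.27, adjusted p = 5.21e-06), both interferon regulatory factors, and Stat3 (2.05 ± 0.17, adjusted p = 9.78e-08). The list mean lay at 6.34 to 6.75 in controls and at 7.22 to 7.94 in tumours.

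Of 20 measured adaptors and NF-kB pathway genes 15 were called higher, 75% of the list beside 27.3% of all genes, with a median of 0.78. Traf4, an adaptor of the TRAF family, rose by 4.72 ± 0.29 (adjusted p = 3.75e-09). Casp1, the protease that matures interleukin-1β (2.04 ± 0.55, adjusted p = 0.00527), Rela, an NF-kB subunit (1.43 ± 0.14, adjusted p = 3.14e-07), and Nfkbia, the NF-kB inhibitor and target (1.39 ± 0.23, adjusted p = 7.49e-05), also rose. Of 7 measured genes downstream of chemokine receptors, Rgs1, Vav1, Rac2 and Gnai2 (57.1%) were called higher, and the arrestin Arrb1 (-1.63 ± 0.22) and Elmo1 (-0.71 ± 0.21) lower.

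Cytokines and receptors outside the naming rule gave 15 of 32 higher (46.9%, beside 27.3% of all genes) and 2 lower. Osmr, the receptor of oncostatin M, rose by 3.04 ± 0.37 (adjusted p = 4.28e-06), and Osm, its ligand, was undetected on all controls and detected on all tumours (1.55 ± 0.28, at least 2.27-fold). Cd74, the receptor of Mif and the invariant chain of class II molecules, rose by 2.85 ± 0.80, Ltbr by 1.80 ± 0.25, Tgfbr2 by 1.52 ± 0.24 and Ifngr1 by 1.30 ± 0.23. Ackr1, a chemokine-scavenging receptor of vessels and some neurons, fell by 1.84 on the log2 scale, and Cntfr by 1.01. The lists were compiled with earlier results of these data known, and their counts are a description.

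Few members were called between the control regions. Between ventral and dorsal controls 1 member was called higher and 3 lower, which is 1.22% and 3.66%, where 5.16% and 4.3% of all genes were called, or 9.45% in either direction. Tnfsf13b was higher in ventral brain (1.48 ± 0.30, adjusted p = 0.00433), and its second probe gave 1.30 ± 0.34. Cx3cl1 (-1.48 ± 0.31, adjusted p = 0.00607), Tnfrsf25 (-2.37 ± 0.33, adjusted p = 0.0002) and Il12a (-2.05 ± 0.56, adjusted p = 0.0284) were lower in ventral brain. The Il12a difference was 0.15 within chip 3, where dorsal control 5 was undetected, and its call was lost in 6 of the 16 fits without 1 array.

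Against each region separately, 29 members were higher and 13 lower than in dorsal controls (26% and 24.2% of all genes, 50.1% in either direction), and 22 were higher and 5 lower than in ventral controls (19.6% and 21.1% of all genes, 40.7% in either direction). These comparisons share the tumours, and the ventral one rests on 3 controls. Past the test against each region were 22 members higher and 5 lower, with 17.2% and 15.7% of all genes. The 5 lower were Ccl27a, Cxcl12, Cx3cl1, Il33 and Il1rapl1. Il1rapl1 was near the threshold against ventral controls (-0.48 ± 0.19, adjusted p = 0.0486), and that call was lost in most fits without 1 array. Of the other members called lower, Ccl21a, Ccl21c, Cxcl14, Il12a, Il34 and Tnfrsf25 were called against dorsal controls and not against ventral ones. Ccl6, Csf1, Il11, Il17rb, Tnfrsf22 and Tnfsf13b were called higher against dorsal controls only. Ccl7, Il10ra, Tnfrsf13b and Tnfrsf4 were called against the mean of both regions and against neither region alone. Against dorsal and ventral controls the differences were -4.01 ± 0.34 and -3.55 ± 0.40 for Ccl27a, -3.11 ± 0.50 and -2.61 ± 0.60 for Cxcl12, and -3.36 ± 0.25 and -1.88 ± 0.29 for Cx3cl1. Il33 differed in the other order, -1.31 ± 0.45 against dorsal and -2.10 ± 0.53 against ventral controls. Il13ra1, a subunit of the interleukin-4 and interleukin-13 receptors, was called only against dorsal controls (1.04 ± 0.31, adjusted p = 0.0102; ventral -0.19 ± 0.37), and its ventral minus dorsal difference was 1.23 ± 0.39 (adjusted p = 0.0644).

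Tumours differed widely from each other. Tumour 2 was the highest tumour for 22 of the 82 members and tumour 6 for 17. Among the 32 risen members, tumour 9 was the lowest tumour for 10 and tumour 10 for 7. The mean over the 11 risen chemokines was 8.25 in tumour 2, 7.95 in tumour 6, 7.18 in tumour 8, 7.14 in tumour 5, 6.70 in tumour 7, 6.41 in tumour 3, 6.18 in tumour 10 and 5.81 in tumour 9. The widest spreads over the tumours were those of Cxcl13 (SD 1.64), Tnfrsf22 (1.58), Cx3cr1 (1.54), Ccl12 (1.36) and Cxcl9 (1.33).

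Chip and tumour are linked, since tumours 8, 9 and 10 shared chip 1. Within that chip Cxcl13 differed by 2.45, Cxcl16 by 2.60 and Ccl12 by 1.62 from its controls, and within chip 3 by 4.38, 3.52 and 2.87. Ccl5 went the other way, 3.30 within chip 1 and 2.71 within chip 3. Of the 43 called members 42 kept their sign within chip 1 (all but Csf1) and 41 within chip 3 (all but Il12a and Tnfrsf4). Chip 2 held no ventral control, and all 42 members called against dorsal controls kept their sign there.

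**Figure D5:**
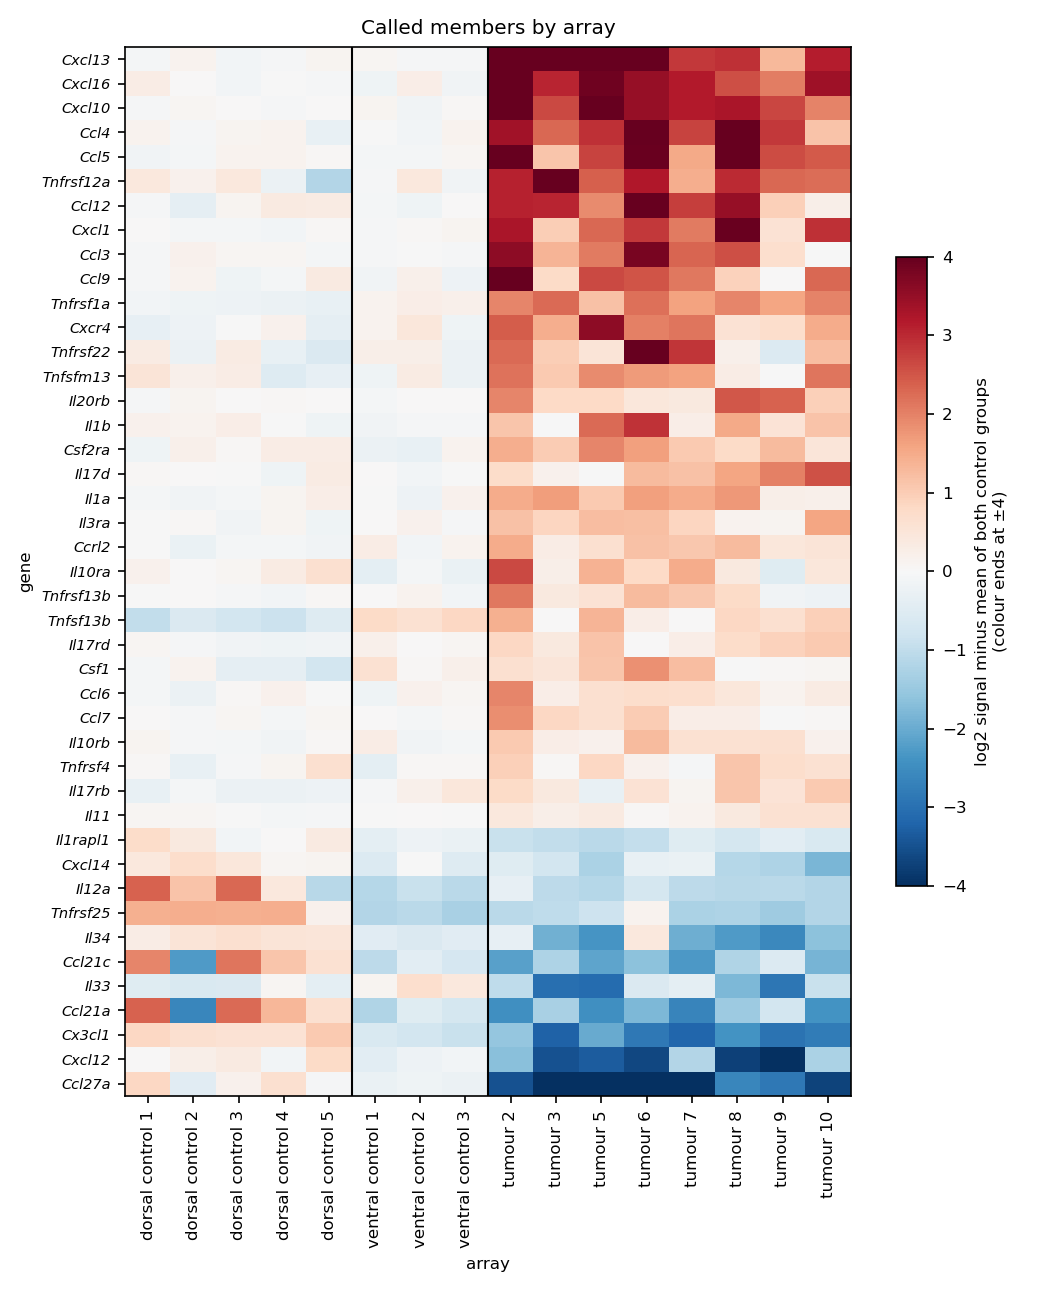
Heat map of the 43 called members (rows, ordered by their difference) on 16 arrays, as log2 signal relative to the average of the dorsal and ventral control means, with colours ending at ±4. Red is higher and blue lower than controls. Tumours 2 and 6 carry the deepest red among the chemokine rows. The dorsal controls stand above the ventral ones for Tnfrsf25 and Cx3cl1, and for Il12a except in dorsal control 5.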

How the data were processed

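Gene expression was measured on 16 mouse Illumina bead arrays, 1 for each of 8 tumours, 5 dorsal controls and 3 ventral controls. Groups and numbers come from the labels, which call the controls biological replicates and the tumours independent tissues. Per the file headers, the deposited table holds bead intensity values that are neither normalised nor background-subtracted, each with a detection p-value. The authors also deposited log2 values for 38563 probes, without a stated method, and no value differed by more than 0.0603 from the one computed here.

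Background was corrected on these intensities with the neqc function of limma 3.58.1 (R 4.3.3), using the detection p-values, and quantile normalisation and the log2 followed after an offset of 16 was added. Probes with detection p under 0.05 on at least 3 arrays were kept (23131), and 18142 with 1 gene symbol in the platform table, updated through Entrez IDs, gave 11755 genes. Each gene was read from its probe with the highest mean. A limma model of 3 group means was fitted to all arrays and moderated by empirical Bayes, p-values were adjusted by Benjamini-Hochberg over all genes of a contrast, and a gene was called at an adjusted p under 0.05. Precision is limited by the number of arrays.

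Where all arrays of the lower group were undetected, the higher of the lowest detected signal and the probe's own value was used on each array, and folds are then bounds, written "at least". Genes were named by rule: the 10 largest rises and falls past the test against each region and detected on every array of the higher side, fixed ligand and receptor pairs, the 4 largest regional differences each way, the 5 widest spreads over tumours, and members of a role or list where 5 or fewer passed. Any other gene was named with its values in view. The driver of Cre and some receptors are not reported here. The members and lists were chosen with earlier results of these data known. The fit was tested on simulated data. Same-numbered samples of different groups deviated together at r = -0.058 to 0.14 over 8 pairs, so the numbers were not treated as pairing. Alternatives covered background correction, normalisation, the authors' values, detection filter, choice of probe, variance prior, array weights, chip, replicate block, weighting of controls and leaving out each array.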

Additional observations from a re-analysis of the deposited data

Results flagged for a closer look

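The 53 genes named by rule were screened for a single array that stands apart within the dorsal controls or within the tumours by Dixon's test, and it did in 4 of 106 groups of values. Chance gives about 1 in 20. Cxcl9 read 8.45 in tumour 5, while the other tumours lay between 4.40 and 5.97. Without tumour 5 its difference was 0.61 and was called. Tnfrsf25 read 5.82 in tumour 6 (others 4.25 to 4.84) and 5.85 in dorsal control 5 (others 7.09 to 7.13). Cxcl16 read 4.84 in dorsal control 1 (others 4.44 to 4.55), all of them undetected.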

How the results depend on the processing

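Over 14 other settings 25 to 36 members were higher and 7 to 11 lower in tumours than in the mean of both regions, and leaving out 1 array gave 26 to 34 and 10 to 11. No called member changed sign in those 14 settings. Median scaling moved the median of all genes from 0.01 to 0.15 and the share of higher calls among all genes from 50.6% to 61.7%, and gave 36 members higher and 10 lower. Values without background correction were smaller, for example 1.78 for Cxcl13. The replicate block gave 25 members higher (Ccl6, Il10rb, Il11, Il17d at 0.28, Il17rb, Il1b, Tnfrsf4 and Tnfsf13b lost) and 7 lower (Ccl21a, Ccl21c, Il12a and Tnfrsf25 lost), called Tnfrsf11b higher (1.05), and gave 5 lower in ventral than dorsal brain. Array weights gave 37 members higher in tumours than in ventral controls (main 22), and 5 higher and 11 lower in ventral than dorsal brain (main 1 and 3). The causes were not tested. Leaving out 1 array gave 27 to 32 higher and 11 to 13 lower against dorsal, 13 to 25 and 4 to 5 against ventral controls, and 1 to 2 and 2 to 4 between regions. The lowest, 13, was without ventral control 3. Direction changed for Ccl19 (0.44, replicate block), Csf1 (-0.25, within chip 1), Cx3cr1 (-0.02 with cyclic loess and -0.02 with 8 controls as 1 group, and -0.23 to 0.38 leaving out 1 array), Il12a within chip 3 (0.08, and 0.15 between regions), Il15ra (-0.03 with array weights, -0.02 to 0.14 leaving out 1 array), Il18 (0.10 with median scaling, 0.04 with array weights), Il1r1 (0.03, median scaling), Tnfrsf11a (0.09 with median scaling, 0.03 with the replicate block, -0.19 to 0.02 leaving out 1 array) and Tnfrsf4 (-0.04, within chip 3). Of 39 members not called 11 changed sign within chip 1, Cx3cr1 the most (-1.38), and 7 within chip 3, Tnfrsf11a the most (0.51). Of 1817 values of single genes under all alternatives, 1681 kept direction and call. Signals near background limit what can be ordered, and 18 members had no control value above it.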
